A study of Caenorhabditis elegans with 14 samples.

Results

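The pharynx is the feeding organ of the nematode Caenorhabditis elegans, and with the head ectoderm and head neurons it is laid down by a small set of transcription factors. The genes described here are 9 of the 20392 in the deposited count table, chosen by name for this role: pha-4, pha-1, peb-1, ceh-22, myo-2, ceh-43, ceh-32, vab-3 and ceh-36. All 9 were found by their WormBase identifiers, and 8 of them passed the low-count filter and were tested. The exception, ceh-22, is described by its counts. In this organ PHA-4, a FoxA forkhead factor, acts as the selector of pharyngeal identity. Factors that act with it or after it, such as CEH-22, turn on genes of pharyngeal muscle. In the head, homeodomain and Pax proteins related to vertebrate Dlx, sine oculis, Pax6 and Otx factors pattern the anterior epidermis and sensory neurons.

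RNA of early embryos from synchronized cultures kept at 20 °C was sequenced in 14 samples. Wild-type embryos of strain N2 Bristol (n = 3) were compared with hpl-2(tm1489) embryos (n = 4, called the hpl-2 mutant), hpl-2-FFAA(px112) embryos (n = 4) and met-2(n4256) hpl-2(tm1489) embryos (n = 3). HPL-2 is an HP1 protein and MET-2 a methyltransferase for histone H3 lysine 9, so the hpl-2 mutant and the met-2 hpl-2 strain share the tm1489 allele and differ by n4256. The met-2 hpl-2 chromosome was kept over the balancer hT2 [bli-4(e937) let-?(q782) qIs48]. The marker qIs48 includes a GFP reporter under the myo-2 promoter. The labels do not say whether the sequenced embryos, or their mothers, carried the balancer. The labels enter "yeast cells" as the cell type of all samples, although the organism, genotypes and gene identifiers are those of the worm.

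Libraries of the first 3 groups held 5332725 to 6390870 counts and those of met-2 hpl-2 held 14313366 to 14840992, so that low transcripts were measured more finely in that strain. In the met-2 hpl-2 strain the mean met-2 level was 10.2% and the mean hpl-2 level 10.5% of wild type. The latter was 4.6% with tm1489 alone and 68.1% with px112. The maternal markers, 28 genes whose RNA is loaded into the oocyte, summed to 11400 to 15700 CPM in all libraries (CPM, counts normalised by TMM and scaled to a common library size), and none of the 28 was at 0 throughout a group. Vitellogenin genes, transcribed in the adult intestine, summed to 1.47 to 4.91 CPM. The libraries of hpl-2-FFAA fell into pairs: chi-square per degree of freedom was 2.22 between replicates 1 and 2 and 1.11 between replicates 3 and 4, against 4.18 to 8.51 across the pairs. Values of the members in this group are therefore given per library, and the comparison with wild type also for each pair. The other mutant groups were uneven too. In the hpl-2 mutant chi-square per degree of freedom was 2.13 to 3.66 between replicate 1 and the others, and 1.16 to 1.53 among replicates 2, 3 and 4. It was 2.82 to 6.68 in the deeper met-2 hpl-2 libraries and 1.17 to 1.28 in wild type. In whole embryos, fewer cells of a type and less RNA per cell cannot be told apart.

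In wild type pha-4, pha-1 and the head factors stood above peb-1, myo-2 and ceh-22, which were low or close to silent. Levels of different genes are compared as CPM per kilobase of gene width. On that scale ceh-43 stood highest at 101.7 ± 5.1 (SD, n = 3), followed by ceh-32 at 65.4 ± 3.25, pha-4 at 47.97 ± 1.30, ceh-36 at 30.2 ± 0.847, pha-1 at 26.99 ± 1.62 and vab-3 at 9.001 ± 1.28. The lowest were peb-1 at 0.904 ± 0.185, myo-2 at 0.103 ± 0.0142 and ceh-22 at 0.0377 ± 0.0653. Of the 9498 tested genes, 85.9% lay below ceh-43, 67.8% below pha-4, 30.9% below vab-3 and 0.358% below myo-2. Among the 6 better expressed genes vab-3 varied most between wild-type libraries, from 83.6% to 109.0% of its mean.

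**Figure D1:**
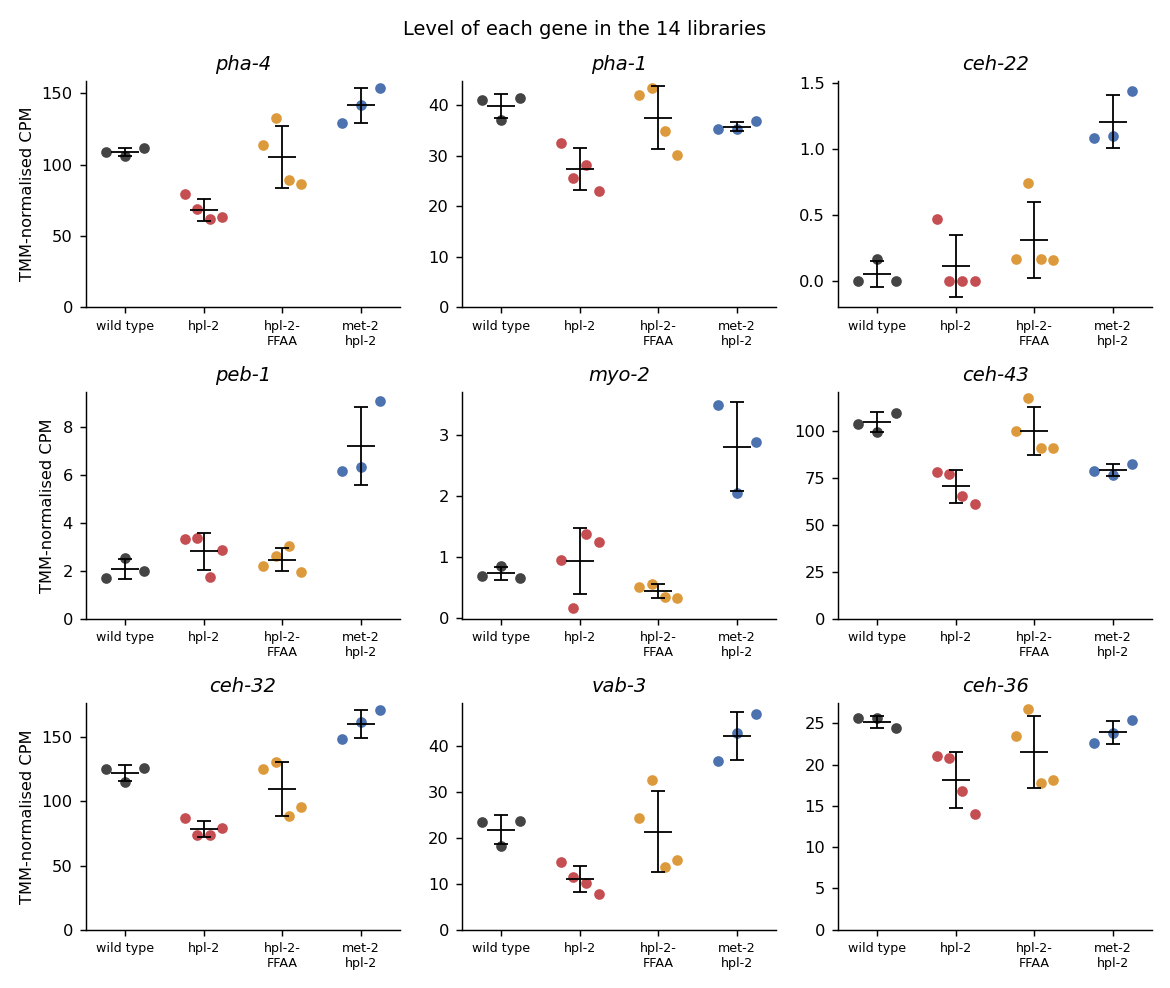
TMM-normalised CPM (y axis, linear) of each of the 9 genes in the 14 libraries, with 1 point per library and the mean ± SD of each genotype in black. In the hpl-2 mutant pha-4, pha-1, ceh-43, ceh-32, vab-3 and ceh-36 lie below all wild-type libraries, while ceh-22, peb-1 and myo-2 are highest in met-2 hpl-2.

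All 9498 genes were tested with edgeR's quasi-likelihood test, and those with a Benjamini-Hochberg adjusted p under 0.05 were called. In the hpl-2 mutant 6 of the 8 tested genes were lower than in wild type and 0 were higher, where 21.6% of all tested genes were called lower and 20.2% higher. The 6 were the organ identity gene pha-4, pha-1 and all 4 head factors, at between 50.8% (vab-3) and 72% (ceh-36) of their wild-type means. All 6 had libraries that lay wholly below wild type, as did those of 24.9% of all tested genes. At an unadjusted p under 0.05, and in DESeq2, the counts were also 6 lower and 0 higher. In hpl-2-FFAA none of the 8 was called, where 0.779% of all tested genes were. In met-2 hpl-2 the same genes did not move together: pha-4, ceh-32 and vab-3 were higher than in wild type, ceh-43 was lower, and pha-1 and ceh-36 were not called. Libraries of met-2 hpl-2 lay wholly above wild type for pha-4, peb-1, ceh-32 and vab-3 (33.6% of all tested genes lay wholly above), as for myo-2, which the filter let in only through these libraries, and wholly below for ceh-43 and pha-1 (33.4%). All 3 mutant groups were set against the same 3 wild-type libraries, so these results are not independent of each other.

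**Figure D2:**
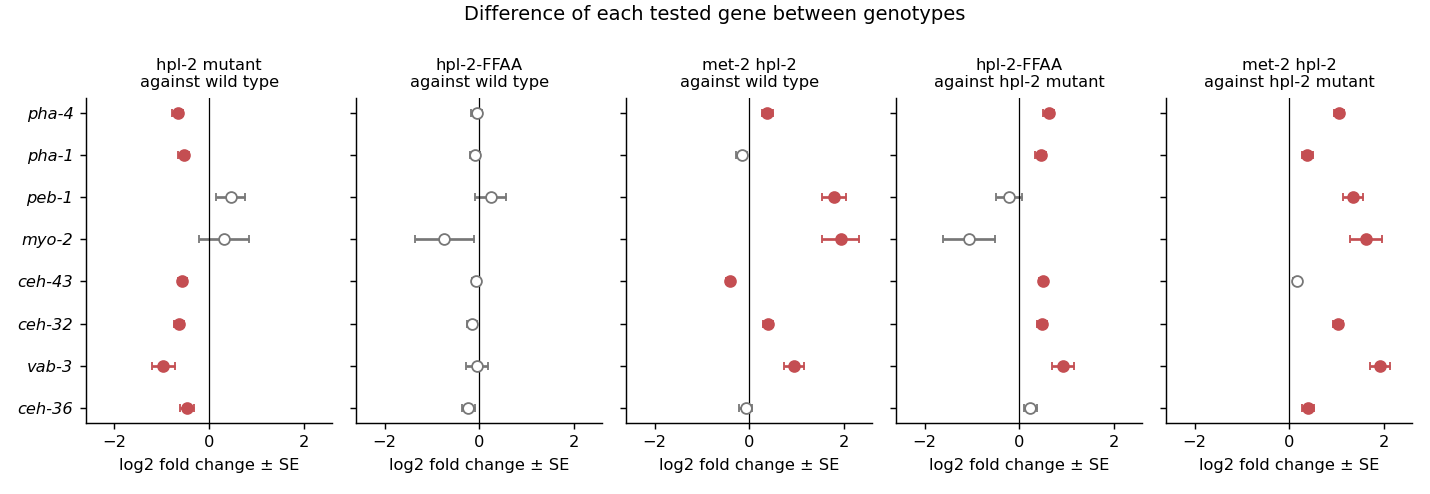
Log2 fold change (x axis) of the 8 tested genes in the 5 comparisons, with bars of 1 standard error; filled red points are called at an adjusted p under 0.05 and open grey points are not. The 6 better expressed genes lie left of 0 in the hpl-2 mutant and near 0 in hpl-2-FFAA, while in met-2 hpl-2 against wild type they range from -0.40 (ceh-43) to 0.95 (vab-3).

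The selector gene pha-4 (WBGene00004013) lies on chromosome V at 20753052 to 20760317 on the plus strand of WBcel235 and has 3 annotated transcripts of 6 to 8 exons. Its libraries read 109, 106 and 112 CPM in wild type, 79.3, 68.7, 62.2 and 63.4 in the hpl-2 mutant, 114, 133, 89.4 and 86.6 in hpl-2-FFAA, and 129, 142 and 154 in met-2 hpl-2. All hpl-2 mutant libraries lay below, and all met-2 hpl-2 libraries above, every wild-type library, while hpl-2-FFAA lay on both sides. The fall in the hpl-2 mutant had a log2 fold change of -0.67 (SE 0.119, adjusted p = 0.000275 in edgeR with Benjamini-Hochberg adjustment). The rise in met-2 hpl-2 was 0.38 (SE 0.114, adjusted p = 0.00859 in edgeR). Set directly against the hpl-2 mutant, with which it shares tm1489, met-2 hpl-2 held 2.07 times as much pha-4 RNA (log2 1.05, SE 0.11, adjusted p = 1.47e-07 in edgeR).

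The gene pha-1 (WBGene00004010, chromosome III, 11131775 to 11136688, plus strand) was named for the pharynx defects of its mutants, and its product acts as the antidote to the SUP-35 toxin. Its libraries read 41.1, 37.1 and 41.4 CPM in wild type, 32.6, 25.6, 28.2 and 23.1 in the hpl-2 mutant, 41.9, 43.3, 34.8 and 30.2 in hpl-2-FFAA, and 35.2, 35.2 and 36.8 in met-2 hpl-2. The hpl-2 mutant libraries lay below all others except hpl-2-FFAA replicate 4. The log2 fold change from wild type was -0.54 in the hpl-2 mutant (SE 0.119, adjusted p = 0.00152 in edgeR) and -0.16 in met-2 hpl-2 (SE 0.113, adjusted p = 0.244 in edgeR). Unlike pha-4, pha-1 did not exceed wild type in any met-2 hpl-2 library. Against the hpl-2 mutant its level there was higher (log2 0.38, SE 0.11, adjusted p = 0.00462 in edgeR), a call that was lost and turned to -0.084 (adjusted p = 0.612) with the maternal covariate described further on.

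Of the genes that suppress pha-1 loss or act with it, 5 were tested, and they did not share a direction. Of all tested genes 20.2% were called higher and 21.6% lower in the hpl-2 mutant, and 28.7% and 29.4% in met-2 hpl-2. In the hpl-2 mutant 1 rose and 1 fell: ari-1.1, which encodes an Ariadne-type ubiquitin ligase, had a log2 fold change of 0.33 (SE 0.0632), and sup-36 one of -0.30 (SE 0.0523). In met-2 hpl-2 sup-35, the toxin gene, rose from 13.0 to 16.8 CPM (log2 0.36, SE 0.119, adjusted p = 0.0143 in edgeR). There sup-36 fell by 0.22 (SE 0.0528) and the Rb-related gene lin-35 by 0.11 (SE 0.0384) on the log2 scale. DESeq2 did not call the rise of sup-35, with 0 members higher in that comparison. In the hpl-2 mutant sup-35 stood at 13.7 CPM, a log2 difference of 0.08 (SE 0.127) that was not called.

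The genes of pharyngeal muscle were measured near the limit of detection. CEH-22 is an NK-2 homeodomain factor of pharyngeal muscle, and its gene (WBGene00000445) lies on chromosome V at 10671918 to 10675769. It had 0, 1 and 0 counts in wild type, 3, 0, 0 and 0 in the hpl-2 mutant, 1, 4, 1 and 1 in hpl-2-FFAA and 15, 15 and 20 in met-2 hpl-2. The upper limit for a library without a count is 3 counts, which is 0.497 to 0.513 CPM in wild type and 0.202 to 0.210 CPM in met-2 hpl-2. Per count sequenced, met-2 hpl-2 held 20.4 times the wild-type rate, with an exact 95% interval of 3.49 to 821 that covers counting error only. In a fit without the low-count filter the gene was called higher in met-2 hpl-2 (adjusted p = 3.71e-05 in edgeR), as it was in DESeq2. An annotated non-coding RNA on the opposite strand overlaps its exons, and the labels do not say whether the counting used strand.

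PEB-1 is a DNA-binding protein of the pharynx that binds the myo-2 enhancer. Its gene (WBGene00003968, chromosome X, 2211051 to 2218988) stood at 1.70, 2.53 and 1.98 CPM in wild type and at 6.18, 6.36 and 9.10 in met-2 hpl-2, and these libraries did not overlap. The rise was 1.79 on the log2 scale (SE 0.252, adjusted p = 9.09e-06 in edgeR). In the hpl-2 mutant the libraries read 3.31, 3.39, 1.72 and 2.87 CPM and overlapped wild type (log2 0.46, SE 0.31, not called). In hpl-2-FFAA they read 2.20, 2.6, 3.05 and 1.96 (log2 0.24, SE 0.322, not called).

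The gene myo-2 encodes a myosin heavy chain found only in pharyngeal muscle. It (WBGene00003514, chromosome X, 12468061 to 12475348) had 4, 5 and 4 counts in wild type, 6, 1, 8 and 7 in the hpl-2 mutant and 3, 3, 2 and 2 in hpl-2-FFAA, against 48, 28 and 40 in met-2 hpl-2. In CPM the met-2 hpl-2 libraries stood at 3.49, 2.05 and 2.89 and the wild-type libraries at 0.679, 0.843 and 0.659. The ratio of count rates was 3.64 (exact 95% interval 2.05 to 7.04), and the log2 fold change was 1.93 (SE 0.398, adjusted p = 0.000451 in edgeR). The hpl-2-FFAA libraries lay below every wild-type library (log2 -0.74, SE 0.623, not called), and those of the hpl-2 mutant on both sides (0.32, SE 0.527, not called). The gene passed the low-count filter only through met-2 hpl-2, so its call there adds nothing to a count of genes. The contribution of the balancer's myo-2 reporter to these counts was not tested.

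The first of the head factors, CEH-43, is a Distal-less homeodomain protein of the anterior epidermis. Its gene (WBGene00000463, chromosome III, 4446638 to 4449943, minus strand) stood at 104, 99.8 and 110 CPM in wild type, 78.2, 77.3, 65.6 and 60.9 in the hpl-2 mutant, 100, 118, 90.9 and 91.0 in hpl-2-FFAA, and 78.7, 76.4 and 82.6 in met-2 hpl-2. Both strains with the tm1489 allele lay below every wild-type library and overlapped each other. The log2 fold change was -0.57 (SE 0.091, adjusted p = 0.000108 in edgeR) in the hpl-2 mutant and -0.40 (SE 0.0904, adjusted p = 0.000924 in edgeR) in met-2 hpl-2. This was the only one of the 8 genes called lower in met-2 hpl-2, where 29.4% of all tested genes were called lower and 28.7% higher. The direct difference between the 2 strains was 0.16 on the log2 scale (SE 0.087, adjusted p = 0.0995 in edgeR), and it was called under a stricter filter on low counts (0.0473) and without hpl-2 mutant replicate 1 (0.0418).

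CEH-32 belongs to the Six3/6 class and VAB-3 is the worm Pax6 protein, and both are needed for the shape of the head. The gene ceh-32 (WBGene00000453, chromosome V, 11701764 to 11705400, minus strand) stood at 125, 115 and 126 CPM in wild type, 87.4, 74.2, 73.5 and 79.3 in the hpl-2 mutant, 125, 131, 88.4 and 95.5 in hpl-2-FFAA, and 149, 162 and 171 in met-2 hpl-2. Its group means were ordered as those of pha-4. For ceh-32 the hpl-2 mutant lay below all other libraries and met-2 hpl-2 above them. For pha-4 hpl-2-FFAA replicate 2 (133 CPM) stood above met-2 hpl-2 replicate 1 (129 CPM). It fell by 0.63 on the log2 scale in the hpl-2 mutant (SE 0.107, adjusted p = 0.000171 in edgeR) and rose by 0.40 in met-2 hpl-2 (SE 0.104, adjusted p = 0.00326 in edgeR). An annotated non-coding RNA on the opposite strand overlaps its exons, so its counts carry the same uncertainty of strand as those of ceh-22.

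The widest swing among the better expressed genes was that of vab-3 (WBGene00006870, chromosome X, 10499890 to 10519580, plus strand). Its libraries read 23.4, 18.2 and 23.7 CPM in wild type, 14.8, 11.4, 10.1 and 7.88 in the hpl-2 mutant, 24.2, 32.5, 13.6 and 15.2 in hpl-2-FFAA, and 36.7, 42.8 and 46.9 in met-2 hpl-2. The hpl-2 mutant lay below wild type in every library and met-2 hpl-2 above every other library, while the spread within hpl-2-FFAA reached beyond wild type on both sides. The log2 fold change from wild type was -0.97 in the hpl-2 mutant (SE 0.253, adjusted p = 0.00534 in edgeR) and 0.95 in met-2 hpl-2 (SE 0.209, adjusted p = 0.000788 in edgeR). Between these strains it was 1.92 (SE 0.213, adjusted p = 2.79e-07 in edgeR).

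CEH-36 is an Otx-class homeodomain factor of chemosensory neurons. Its gene (WBGene00000457, chromosome X, 14183221 to 14186566, minus strand) stood at 25.6, 25.6 and 24.4 CPM in wild type, 21.0, 20.8, 16.8 and 14 in the hpl-2 mutant, 23.5, 26.8, 17.8 and 18.1 in hpl-2-FFAA, and 22.6, 23.8 and 25.4 in met-2 hpl-2. The hpl-2 mutant did not overlap wild type, and met-2 hpl-2 did. The fall in the hpl-2 mutant was the smallest of the 6 (log2 -0.46, SE 0.143, adjusted p = 0.0143 in edgeR), and in met-2 hpl-2 the difference from wild type was -0.07 (SE 0.134, not called). Its rise from the hpl-2 mutant to met-2 hpl-2 (0.39, SE 0.13, adjusted p = 0.0119 in edgeR) was not called without hpl-2 mutant replicate 4 (0.0522) or with scaling by library size alone (0.0520), and with the maternal covariate it turned to -0.15 (adjusted p = 0.448 in edgeR).

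In the direct comparison of met-2 hpl-2 with the hpl-2 mutant, 7 members passed the low-count filter without the met-2 hpl-2 libraries. Of these 6 were higher and 0 lower, where 34% of all 9078 such genes were called higher and 36.8% lower. Of all 9498 tested genes 36% were called higher and 35.2% lower. The eighth, myo-2 (log2 1.61, SE 0.339), was tested only because of its counts in met-2 hpl-2. The folds ran from 1.30 for pha-1 to 3.77 for vab-3, with ceh-32 at 2.04 and peb-1 at 2.53. With the maternal index described further on as a covariate, 3 members were called in edgeR, pha-4 at 0.50, ceh-32 at 0.57 and vab-3 at 0.91 on the log2 scale, where 42.5% of all tested genes were called. There pha-1 (-0.084), ceh-43 (-0.18) and ceh-36 (-0.15) changed sign and were not called, nor were peb-1 (0.82, adjusted p = 0.0801 in edgeR) and myo-2 (1.18, adjusted p = 0.18 in edgeR). No member was lower at an unadjusted p under 0.05, and DESeq2 called 8 higher, including ceh-22 and myo-2, and 0 lower. Against wild type the same edgeR test called 5 higher and 1 lower in met-2 hpl-2, or 4 higher without myo-2, and DESeq2 6 higher and 1 lower, again with ceh-22.

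Within hpl-2-FFAA the pairs of libraries stood at different levels of pha-4, ceh-32 and vab-3. With all 4 libraries the log2 fold changes from wild type of the 6 better expressed genes ran from -0.23 (ceh-36, SE 0.14) to -0.04 (vab-3, SE 0.23). No tested member was called by edgeR, at an unadjusted p under 0.05 or by DESeq2. Replicates 3 and 4 held pha-4 at 82.1% and 79.5% of the wild-type mean, ceh-32 at 72.4% and 78.3% and vab-3 at 62.3% and 69.6%, while replicates 1 and 2 held pha-4 at 104.7% and 121.7% and vab-3 at 110.9% and 149.4%. With replicates 3 and 4 alone 820 of 9715 tested genes (8.44%) were called in edgeR, among them pha-4 (log2 -0.31, adjusted p = 0.0259), ceh-32 (-0.41, 0.00286), ceh-36 (-0.49, 0.0292) and vab-3 (-0.60, 0.0407), all lower. In that pair pha-1 (-0.30), ceh-43 (-0.21), peb-1 (0.27) and myo-2 (-1.09) were not called. With replicates 1 and 2 alone none of the members was called, and the values of pha-4, pha-1, ceh-32, ceh-43 and vab-3 lay above 0.

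Set against the hpl-2 mutant, hpl-2-FFAA held more of pha-4, pha-1, ceh-43, ceh-32 and vab-3, with 5 members called higher and 0 lower, where 18.7% of all tested genes were called higher and 16.5% lower. DESeq2 and an unadjusted p under 0.05 gave the same counts. The largest of these differences was that of vab-3 (log2 0.92, SE 0.239, adjusted p = 0.00636 in edgeR), followed by pha-4 (0.62, SE 0.112, adjusted p = 0.000501 in edgeR). For ceh-36 it was 0.23 (SE 0.137) and for peb-1 -0.22 (SE 0.277), both not called, and ceh-22 had 7 counts in hpl-2-FFAA against 3 in the hpl-2 mutant. With hpl-2-FFAA replicates 3 and 4 alone 3 members were called, where 15.3% of all tested genes were, and pha-1 (adjusted p = 0.151) and vab-3 (0.217) were not, in the same edgeR test. With replicates 1 and 2 alone pha-4, pha-1, ceh-43, ceh-32, vab-3 and ceh-36 were called (ceh-36 at 0.46, adjusted p = 0.00867 in edgeR). The share of all tested genes called in that fit is not given here. With all 4 libraries and the maternal covariate 3 members were called, where 15.3% of all tested genes were, and pha-1 (0.17, adjusted p = 0.265) and vab-3 (0.29, adjusted p = 0.223) were not. The myo-2 difference of -1.06 (SE 0.551, adjusted p = 0.146 in edgeR) was called without hpl-2 mutant replicate 2 (0.0261), a library with 1 count of this gene.

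Maternal RNA was higher in the libraries where pha-4, ceh-32 and vab-3 stood below wild type. An index, the mean log2 CPM of the 28 maternal markers, lay between 8.058 and 8.084 in wild type, 8.192 and 8.359 in the hpl-2 mutant and 7.937 and 8.054 in met-2 hpl-2. In hpl-2-FFAA it was 8.038 and 7.97 in replicates 1 and 2 and 8.225 and 8.254 in replicates 3 and 4. Of the 28 markers 16 were higher and 0 lower in the hpl-2 mutant (18 and 1 at an unadjusted p under 0.05, 16 and 0 in DESeq2), with a median log2 of 0.238 against 0.00411 for all tested genes. The early zygotic markers, genes switched on in the first cell cycles of zygotic transcription, went the other way, with 13 of 22 lower and 0 higher, also at an unadjusted p under 0.05 (12 and 0 in DESeq2). Of all tested genes 20.2% were called higher and 21.6% lower in the hpl-2 mutant. In met-2 hpl-2 4 maternal markers were higher and 8 lower, and 2 early zygotic markers were higher and 12 lower. There 28.7% of all tested genes were called higher and 29.4% lower. Of these markers only sdz-28 and vet-6, both early zygotic and lower, were called in hpl-2-FFAA. The early zygotic sum was 2830 to 2910 CPM in wild type, 2260 to 2450 in the hpl-2 mutant, 2580 to 2700 in hpl-2-FFAA and 2760 to 2830 in met-2 hpl-2.

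**Figure D3:**
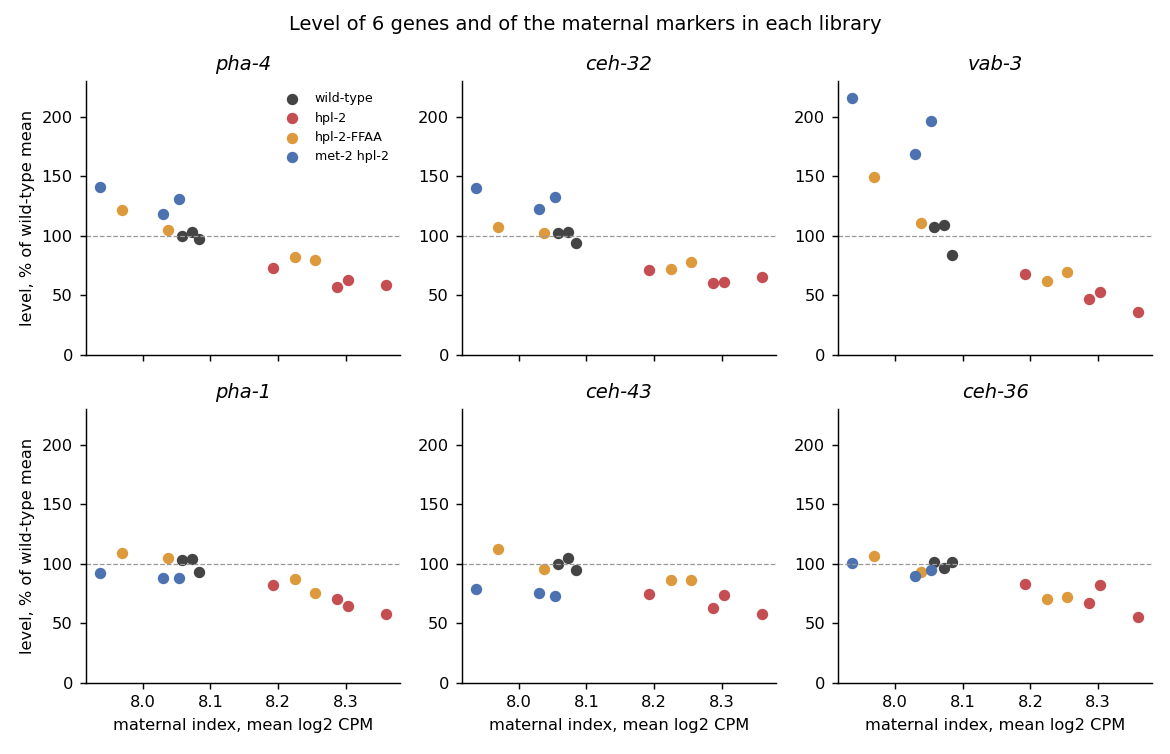
Level of 6 genes as a percentage of the wild-type mean (y axis, linear) against the maternal index, the mean log2 CPM of 28 maternal markers (x axis), with 1 point per library coloured by genotype. The hpl-2 mutant libraries and hpl-2-FFAA replicates 3 and 4 lie at an index of 8.192 or more and below 100%, and the met-2 hpl-2 libraries lie above 100% for pha-4, ceh-32 and vab-3.

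With the index as a covariate in the edgeR fit, 3 of the 6 falls in the hpl-2 mutant were called and 3 were not, where 18% of all tested genes were called in either direction. The log2 fold change of pha-4 became -0.25 (SE 0.0744, adjusted p = 0.0123), that of ceh-32 -0.28 (SE 0.0752, adjusted p = 0.00582) and that of ceh-43 -0.30 (SE 0.0781, adjusted p = 0.0043). Those of pha-1 (-0.18, adjusted p = 0.271), vab-3 (-0.20, adjusted p = 0.439) and ceh-36 (-0.05, adjusted p = 0.853) lost their calls in this edgeR fit. In met-2 hpl-2 against wild type all 6 calls were made with the covariate too (61.4% of all tested genes were called), with pha-4 at 0.25, ceh-32 at 0.29, vab-3 at 0.71 and ceh-43 at -0.49. There pha-1 was called lower (-0.27, SE 0.0772, adjusted p = 0.00268 in edgeR). The index did not overlap between wild type, the hpl-2 mutant and met-2 hpl-2, so among these groups it is confounded with genotype. Its slope comes from the spread within groups, and the adjusted values carry that slope beyond the range of each group. Lost calls and changed signs under the covariate therefore do not separate maternal RNA from genotype. The index is itself a measure of RNA in these libraries, and whether it stands for embryo age was not tested.

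Markers of body muscle and epidermis were also higher in met-2 hpl-2, while those of intestine and neurons went both ways. Only genes that passed the low-count filter without the met-2 hpl-2 libraries are counted here, of which 26.6% over the whole table were called higher and 30.7% lower than in wild type. Of 7 such body muscle markers 6 were higher and 0 lower, with mlc-1, unc-15 and unc-27 set aside. At an unadjusted p under 0.05 the 10 tested, those 3 included, had 9 higher and 0 lower. DESeq2, counted over all 13 listed genes, had 10 higher and 0 lower. The sum of the 13 went from 87.5 to 100 CPM in wild type to 189 to 236 CPM, and myo-3, a myosin heavy chain of body muscle, from 0.726 to 22.1 CPM. That sum was 59.6 to 81.5 CPM in the hpl-2 mutant and 67.5 to 120 in hpl-2-FFAA, and 1 of the 13 listed genes was at 0 in all libraries of each group other than met-2 hpl-2. Of 10 such epidermis markers 8 were higher and 0 lower (9 and 0 with dpy-7, also at an unadjusted p under 0.05 and in DESeq2). Of 6 intestine markers 3 were higher and 2 lower, and of 9 neuron markers 5 were higher and 1 lower. The 2 lower intestine markers were end-1 (log2 -0.445) and end-3 (-0.716), which are also on the early zygotic list. The hpl-2 mutant counts, over all tested markers of each list, were 2 higher and 3 lower for body muscle and for epidermis (2 and 2 each in DESeq2), 0 and 2 for intestine (0 and 3 at an unadjusted p under 0.05 and in DESeq2), and 1 and 4 for neurons. Of all tested genes 20.2% were called higher and 21.6% lower in that mutant. The epidermis sum was 837 to 862 CPM in wild type, 722 to 831 in the hpl-2 mutant, 765 to 1030 in hpl-2-FFAA and 1360 to 1690 in met-2 hpl-2. For intestine the same sums were 49.4 to 56.3, 34.7 to 45.9, 46.5 to 66.9 and 64.4 to 76.9 CPM, and for neurons 434 to 461, 394 to 430, 423 to 443 and 498 to 558 CPM. None of these 4 tissues had a marker called in hpl-2-FFAA by edgeR or DESeq2, and at an unadjusted p under 0.05 only 1 neuron marker was lower. The part of these tissues in the values of peb-1, myo-2 and ceh-22 was not tested. The members lie on chromosomes III, V and X. The 1122 tested X-linked genes had a median log2 of -0.22 in the hpl-2 mutant and 0.124 in met-2 hpl-2. Of them 37% were called lower and 10.6% higher in the hpl-2 mutant, and 19.3% and 36.3% in met-2 hpl-2. For autosomal genes these shares were 19.6% and 21.6%, and 31% and 27.4%. The X-linked members stood at -0.97 and 0.95 (vab-3), -0.46 and -0.07 (ceh-36), 0.46 and 1.795 (peb-1) and 0.32 and 1.93 (myo-2). Not called were peb-1 and myo-2 in the hpl-2 mutant and ceh-36 in met-2 hpl-2.

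Other genes of pharynx and head development were read from lists chosen for their roles. The factors that specify pharyngeal precursors, of which 8 were tested, were split in the hpl-2 mutant, with 3 higher and 3 lower (3 and 2 in DESeq2). Of all tested genes 20.2% were called higher and 21.6% lower in that mutant. The TCF gene pop-1 fell from 201 to 145 CPM (log2 -0.48, SE 0.0623), and the Notch receptor gene glp-1 and its nuclear partner lag-1, both with maternal RNA, rose by 0.33 (SE 0.0612) and 0.17 (SE 0.0385). In met-2 hpl-2 0 of the list were higher, also at an unadjusted p under 0.05 and in DESeq2. There 28.7% of all tested genes were called higher and 29.4% lower. Lower in this strain were the T-box genes tbx-37 (log2 -0.46, SE 0.105) and tbx-38 (-0.25, SE 0.077), which act upstream of pha-4 in the anterior lineage. So pha-4 stood above wild type in that strain while both of these genes stood below. Both were also called lower in the hpl-2 mutant, where pha-4 fell (tbx-37 -0.35, SE 0.108, and tbx-38 -0.20, SE 0.0786). Between met-2 hpl-2 and the hpl-2 mutant neither was called (tbx-37 -0.11, SE 0.101, and tbx-38 -0.05, SE 0.0724).

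Of the transcription factors of the developing pharynx, those that were called were lower in the hpl-2 mutant and higher in met-2 hpl-2. The list has 9 genes, of which 5 were tested, and in the hpl-2 mutant 2 were lower and 0 higher (4 and 0 at an unadjusted p under 0.05, 3 and 0 in DESeq2), where 21.6% of all tested genes were called lower. These were eya-1, an Eyes absent homologue (74.0 to 42.7 CPM, log2 -0.79, SE 0.138), and tbx-2, a T-box factor of pharyngeal muscle (25.5 to 16.2 CPM, log2 -0.65, SE 0.174). In met-2 hpl-2 4 were higher and 0 lower against 28.7% of all tested genes called higher, with ceh-19 at 0.06 and not called, the same at an unadjusted p under 0.05 and in DESeq2. Among them were tbx-2 (52.0 CPM, log2 1.03, SE 0.149), ceh-45 (0.98, SE 0.205) and the sine oculis gene ceh-34 (0.89, SE 0.309).

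Of 20 genes of pharyngeal differentiation 9 were tested, and 4 of the 20 had no count in any wild-type library. In met-2 hpl-2 5 of the 8 that passed the filter without its libraries were higher and 0 lower, where 26.6% of all such genes were called higher. At an unadjusted p under 0.05 the counts were 5 and 0 of the 9 tested, and in DESeq2 5 and 0 of all 20. The acetylcholine receptor gene eat-2 rose from a mean of 0.506 to 9.08 CPM (log2 4.13, SE 0.301), abu-14 from 1.74 to 5.98 CPM (1.78, SE 0.269) and the laminin gene lam-3 from 218 to 482 CPM (1.14, SE 0.238). Of these, eat-2 was also higher in the hpl-2 mutant, at 2.34 CPM (log2 2.19, SE 0.406). Its wild-type mean was near the limit of 3 counts (0.497 to 0.513 CPM), and it stood at 1.04 CPM in hpl-2-FFAA. The low-count filter was not run without the hpl-2 mutant libraries, so this call adds nothing to a count of genes. In that mutant eat-20 (log2 -0.48, SE 0.06) and lam-3 (-0.61, SE 0.238, adjusted p = 0.0466 in edgeR) were lower, and DESeq2 called 1 lower.

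Of the head patterning genes, those that were called were likewise lower in the hpl-2 mutant and higher in met-2 hpl-2. The lists are not separate, since eya-1 and ceh-34 are also on the list of pharynx transcription factors and cnd-1 and hlh-3 among the neuron markers. Of 15 tested 9 were lower and 0 higher in the hpl-2 mutant (12 and 0 at an unadjusted p under 0.05), where 21.6% of all tested genes were called lower. DESeq2, counted over all 20 listed genes in the table, called 10 lower and 0 higher. The median log2 of the 15 was -0.733 against 0.00411 for all tested genes. Those called lower by edgeR included eya-1, the Otx gene ceh-37 (log2 -0.73, SE 0.138) and the NK-2 gene ceh-27 (-0.75, SE 0.159). In met-2 hpl-2 11 were higher and 0 lower (13 and 0 at an unadjusted p under 0.05, 9 and 0 in DESeq2; 28.7% of all tested genes were called higher). Those of smallest adjusted p were the SoxB gene sox-2 (34.4 to 97.8 CPM, log2 1.51, SE 0.208), the zinc finger homeodomain gene zag-1 (1.51, SE 0.219) and the ephrin receptor gene vab-1 (0.26, SE 0.0393). In hpl-2-FFAA 0 genes of these lists, the pha-1 list included, were called in edgeR or DESeq2. At an unadjusted p under 0.05 head patterning had 2 lower and 0 higher there, the pha-1 list 1 each way, pharynx specification and differentiation 1 higher each and the pharyngeal factors 0.

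**Figure D4:**
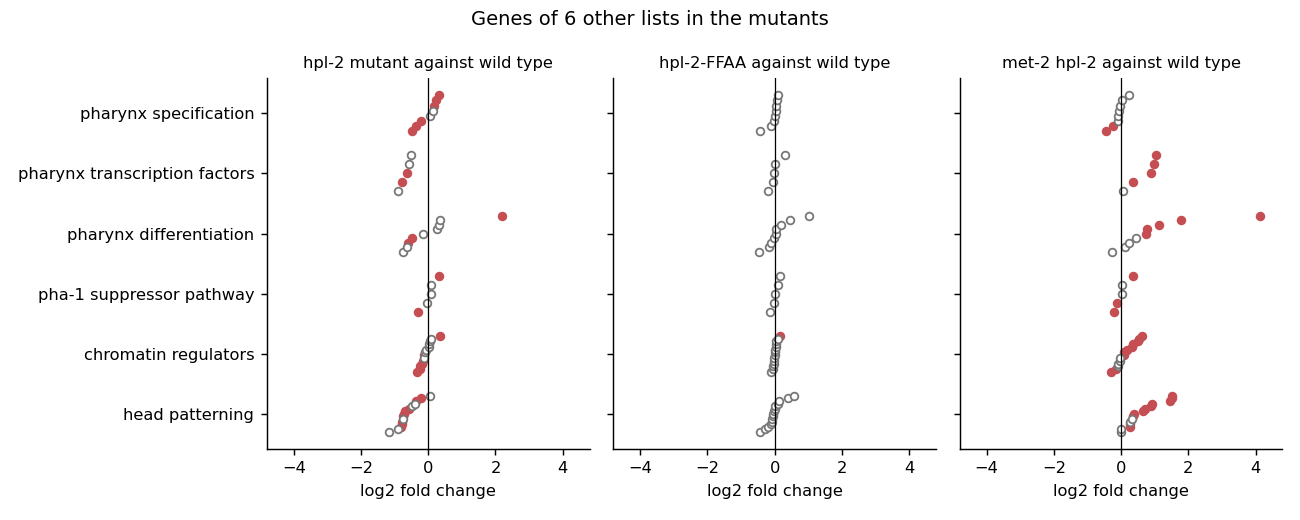
Log2 fold change from wild type (x axis) of each tested gene of 6 lists in the 3 mutant groups; red points are called at an adjusted p under 0.05 and open grey points are not, and the height within a row only spreads the points. Head patterning genes and pharynx transcription factors lie mostly left of 0 in the hpl-2 mutant and right of 0 in met-2 hpl-2.

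Chromatin regulators, 14 of them tested, were 1 higher and 6 lower in the hpl-2 mutant and 8 higher and 2 lower in met-2 hpl-2 (6 and 2 in DESeq2), with medians of -0.116 and 0.0893. Of all tested genes 20.2% were called higher and 21.6% lower in the first of these comparisons, and 28.7% and 29.4% in the second. The synMuv gene lin-15B was higher in all 3 mutant groups, by 0.62 on the log2 scale in met-2 hpl-2 (SE 0.0323), 0.36 in the hpl-2 mutant (SE 0.0308) and 0.17 in hpl-2-FFAA (SE 0.0308). Lower in the hpl-2 mutant were xnp-1, an ATRX homologue (-0.34, SE 0.0481), and let-418, a Mi-2 homologue (-0.26, SE 0.0383). In met-2 hpl-2 htz-1, which encodes the histone variant H2A.Z (0.50, SE 0.0504), and lin-13 (0.54, SE 0.0594) were higher.

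Genes whose log2 CPM over the 14 libraries was most like that of each member were read among 7514 others with a mean of at least 5 CPM. For pha-4 these were cec-1 (Pearson r = 0.996), Y39G10AR.11 (0.994) and cav-1 (0.994), and for vab-3 sto-1, fbn-1 and epi-1 (each 0.993). For ceh-32 they were T26C12.3 (0.986), pdi-6 and ain-1 (both 0.985), for ceh-43 lbp-3 (0.97), smg-1 (0.969) and M02D8.3 (0.967), for pha-1 erd-2.1 (0.962), fbxb-100 (0.96) and dnj-27 (0.958), and for ceh-36 ttr-20 (0.949), tpa-1 (0.938) and Y45G5AM.5 (0.937). Between members, pha-4 had r = 0.978 with ceh-32 and 0.976 with vab-3 but 0.553 with ceh-43. These are descriptions of 14 libraries that share 4 genotypes and the axis of maternal RNA.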

How the data were processed

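The deposited table holds unnormalised counts of 20392 genes, a gene width and 1 column for each of the 14 samples. Per the submitters' processing notes, Trimmomatic 0.39 and the build ce10 were used. No source used here names the aligner, the counting program or its use of strand. Symbols and positions came from the WBcel235 annotation by identifier (19870 matched) and were not converted to ce10.

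All 14 libraries entered 1 edgeR 4.0.16 fit (R 4.3.3) of 4 groups with the default low-count filter, TMM scaling and quasi-likelihood tests, adjusted by Benjamini-Hochberg over 9498 genes in each of 5 comparisons. SE was derived from the F statistic. The procedure was tested on simulated data. DESeq2 1.42.0, other scalings and filters, left-out libraries, thinned met-2 hpl-2 libraries, a replicate block and a maternal covariate were alternatives.

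The members and the 13 gene lists (184 of 187 entries in the table) were chosen with earlier results of these data known. Some genes stand on several lists. DESeq2 counts of a list cover all its genes in the table, also those that the edgeR filter left out. All members are described, with up to 3 called genes of smallest adjusted p per pathway list and the 3 genes most like each member of at least 5 CPM; marker lists are given mainly by counts. Replicates all differed beyond sampling noise in a chi-square test. Since no label says that they came from separate cultures, the spread behind each p-value may be technical. Intervals and limits from counts cover counting error only. Promoter motifs were not analysed here.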

Additional observations from a re-analysis of the deposited data

Results flagged for a closer look

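Of the 18 combinations of a member and a group of 4 libraries, 2 held a library far from the others, both for ceh-22. The highest hpl-2 mutant library stood at 0.473 CPM (3 counts, in replicate 1) where the other 3 had 0 counts, and the highest hpl-2-FFAA library at 0.744 CPM (4 counts, in replicate 2) where the others had 1 count each. Chance flags about 1 in 20 such groups of normally distributed values, a rate that does not hold for counts this low. When 1 library has counts and the other 3 have 0, the rule always flags it. Counts this low differ by a few reads.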

How the results depend on the processing

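The 6 members called in met-2 hpl-2 against wild type were called under all alternatives that tested them; the stricter low-count filter left out peb-1 and myo-2. The maternal covariate gave 1712 genes and 3 members in the hpl-2 mutant against wild type, 225 genes in hpl-2-FFAA against wild type, 1452 and 3 in hpl-2-FFAA against the hpl-2 mutant, and 4037 and 3 in met-2 hpl-2 against the hpl-2 mutant, against 3968, 74, 3345 and 6765 genes in the fits without it. With it, the log2 values of pha-4 (0.033) and vab-3 (0.082) in hpl-2-FFAA against wild type, of ceh-36 in hpl-2-FFAA against the hpl-2 mutant (-0.097), and of pha-1 (-0.084), ceh-43 (-0.18) and ceh-36 (-0.15) in met-2 hpl-2 against the hpl-2 mutant changed sign. The cause was not tested.

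The hpl-2-FFAA group depended on its libraries: 49 genes were called against wild type with replicates 1 and 2 alone, and 820 genes and 4 members with replicates 3 and 4 alone, where the comparison with the hpl-2 mutant gave 1482 genes and 3 members and ceh-36 at -0.025. Leaving out 1 library gave 26 to 108 genes against wild type: 31, 26 and 33 without wild-type replicate 1, 2 or 3 and 44 without hpl-2-FFAA replicate 4. With only the groups compared 24 were called. Against wild type, members that were not called changed sign: with replicates 1 and 2 alone pha-4 was 0.18, pha-1 0.095, ceh-32 0.065, ceh-43 0.056 and vab-3 0.37, and without single libraries pha-4 lay at up to 0.035, pha-1 at up to 0.0014 and vab-3 at up to 0.12. Without single libraries the lowest values were -0.17 for pha-4, -0.16 for pha-1 and -0.31 for vab-3.

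Equal replicate numbers were not treated as pairs, since the labels name no shared batch. Between the deviations of hpl-2 mutant and hpl-2-FFAA libraries, r was 0.502, 0.0377, 0.298 and 0.544 for replicates 1, 2, 3 and 4. Differently numbered libraries of these groups ran from -0.633 to 0.666. The value of replicate 2 cannot decide the question, since hpl-2 mutant replicate 2 had r from -0.0339 to 0.0377 with all libraries of other groups. Same-numbered pairs with met-2 hpl-2 or wild type ran from -0.494 to 0.174. Whether equal numbers pair the samples therefore stays undecided. With the replicate block 43 genes were called in hpl-2-FFAA against wild type, pha-4 was 0.0095 and vab-3 0.086, and no call of a member changed. Depth limits ceh-22, myo-2 and peb-1.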
